A study of Mus musculus with 4 samples.

Results

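The cells described here are the neutrophils of the mouse liver, 1208 of 31290 cells kept from 4 single-cell libraries. They were chosen by measured values: at least 20 UMIs (unique molecular identifiers, each a counted transcript) of S100a8 and S100a9 together, at least 2 of Csf3r, Cxcr2 and Retnlg together, at most 5 of the 3 C1q genes, none of the CD3 or CD79 genes, and at most 2 of F13a1 and Chil3 together. Cells entered with at least 500 genes detected and at most 20% of UMIs from mitochondrial genes. All libraries came from the whole liver of male C57BL/6J mice after perfusion, digestion, red blood cell lysis and dead cell removal. The NCD library (n = 1) came from normal chow and the HFD libraries (n = 2) from a high-fat diet, both with oral distilled water, and the JQF library (n = 1) from a high-fat diet followed by the same diet with oral Jiangtang Qingre Formula, a preparation of several herbs. The rule found 87 neutrophils in the NCD library, 380 and 387 in HFD replicates 1 and 2, and 354 in the JQF library. The protocol gives liver tissue of n = 1, 2 and 1 for NCD, HFD and JQF, as many as there were libraries. The NCD and JQF groups have no replicate, so every p-value below takes its spread from the HFD pair alone.

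Neutrophils are short-lived phagocytes that leave the bone marrow mature, with their granule proteins already made. They are recruited by CXC chemokines through Cxcr2 and Cxcr1, kill microbes with the NADPH oxidase and granule contents, and rely on glycolysis for energy. In a liver with steatosis they are among the cells counted in inflammatory foci. Interferons of type I and type II induce in them, as in most cells, a common program of interferon-stimulated genes.

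The median neutrophil held 3388.5 to 5848 UMIs and 1160 to 1666 genes, against 7986 to 13211 UMIs in the other kept cells. The highest value of each neutrophil range was that of the NCD library. Summed over the neutrophils, the libraries gave 698750 UMIs in NCD, 1502899 and 1539214 in the HFD replicates, and 1819655 in the JQF library. Free RNA was estimated to make up 19.5% of the UMIs of the NCD neutrophils, 4.44% and 11.6% in the HFD replicates, and 10.7% in the JQF library. Between 7 and 15 neutrophils per library were predicted to be doublets, that is, droplets holding more than a single cell, and 5 to 8 neutrophils per library with over 4 times the median UMIs held 13.1% to 24.2% of the UMIs. Those large cells carried MHC class II transcripts at 9483 to 28373 CPM (UMIs scaled to a common library total), against 147 to 701 CPM in the remaining neutrophils. Without predicted doublets there were 80, 370, 373 and 339 neutrophils, in the order NCD, HFD replicate 1, HFD replicate 2 and JQF, which is the order of every series of values below. Of the 5, 7, 8 and 8 large cells, 5, 4, 7 and 4 were predicted doublets. The large cells left after their removal were thus all in the HFD and JQF libraries. Pairs of libraries shared 14 to 30 cell barcodes in all.

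The label held against genes that the rule did not use. G0s2, an inhibitor of lipolysis abundant in neutrophils, stood at 2102, 2522, 4109 and 1913 CPM in the neutrophils and at 7.96 to 23.8 CPM in the other cells. The gelatinase Mmp9 was at 659, 323, 532 and 366 CPM, and the interleukin 1 decoy receptor Il1r2 at 2533, 1276, 2435 and 1532 CPM. Mpo, Elane, Ctsg, Prtn3 and Fcnb, the primary granule genes transcribed in bone marrow precursors, were at or near 0 in every library.

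The genes of the rule are given as description, with no test. S100a8 and S100a9 encode the 2 subunits of calprotectin. S100a8 was at 8638, 21035, 20104 and 17040 CPM and S100a9 at 18779, 25982, 27429 and 23519 CPM, so the ratio of S100a8 to S100a9 was 0.46 in NCD, 0.81 and 0.73 in the HFD replicates, and 0.72 in the JQF library. In the RNA outside cells that ratio was also lowest in NCD, at 0.60, against 0.87, 0.92 and 0.84. Csf3r, the receptor of granulocyte colony-stimulating factor, was at 2432, 2151, 2499 and 2077 CPM. Just inside the S100 threshold, with 20 to 29 UMIs, lay 10, 23, 27 and 21 neutrophils, and 10, 24, 25 and 26 cells with 10 to 19 UMIs lay just outside it.

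Neutrophils made up a larger share of the kept cells in both HFD libraries and in the JQF library than in the NCD library. The share was 1.46% of kept cells in NCD (exact 95% binomial interval 1.17 to 1.79), 5.83% (5.28 to 6.43) and 3.77% (3.41 to 4.16) in the HFD replicates and 4.15% (3.73 to 4.59) in JQF; these intervals cover counting error only. The mean HFD share was 3.30 times the NCD share, and 4.01 or 2.59 times with HFD replicate 1 or 2 alone. The JQF share was 0.863 times the HFD mean and lay between the HFD replicates. Among cells with a UMI of Ptprc, the pan-leukocyte gene CD45, neutrophils were 3.70% in NCD (2.97 to 4.54), 6.18% (5.59 to 6.82) and 4.41% (3.98 to 4.86) in the HFD replicates, and 4.66% (4.19 to 5.16) in the JQF library. On that denominator the HFD mean was 1.43 times the NCD share, and the NCD interval overlapped those of HFD replicate 2 and of JQF. With 1 NCD and 1 JQF library these shares have no test between conditions, and the number of neutrophils in the liver was not measured.

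**Figure D1:**
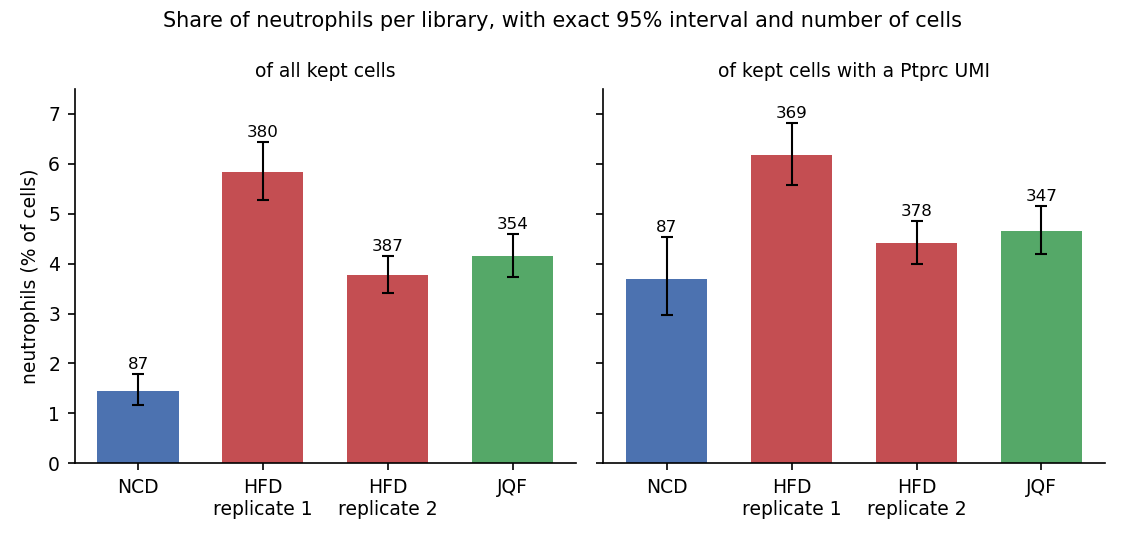
Neutrophil share of kept cells and of Ptprc-positive cells in each library, in percent, with exact 95% binomial intervals. The NCD library is lowest on both scales, and the JQF library lies between the HFD replicates on both.

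Expression was compared on UMIs summed over the neutrophils of each library. With all 1208 neutrophils, edgeR's quasi-likelihood test with Benjamini-Hochberg adjustment called 0 of 9619 genes (0.0%) in HFD against NCD, with 1828 genes at an unadjusted p under 0.05 and a smallest adjusted p of 0.113, while DESeq2 called 235. In JQF against HFD it called 0 of 9619 (0.0%), with 201 at an unadjusted p under 0.05, and DESeq2 called 8. Without the predicted doublets, HFD against NCD gave 603 called genes of 8019 (7.52%), 331 higher (4.13%) and 272 lower (3.39%) in HFD. JQF against HFD gave 35 (0.436%), 32 higher (0.399%) and 3 lower (0.0374%) in JQF. The count thus changed when few cells were left out. Leaving out instead the cells over 4 times the median UMIs, a choice made after seeing the data, gave 912 and 5 called genes, of which 564 and 4 were among the 603 and 35, in the same direction. The fit to all neutrophils was the main fit, and the fit without predicted doublets was an alternative to it. Unless another setting is named, the levels, log2 fold changes with their standard errors (SE), adjusted p-values and called genes below are from that alternative. In the main fit edgeR made none of these calls. Without TMM, the fit to all neutrophils called 22 genes in HFD against NCD, 16 of them among the 603. The contrasts HFD against NCD and JQF against HFD share the HFD libraries.

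**Figure D2:**
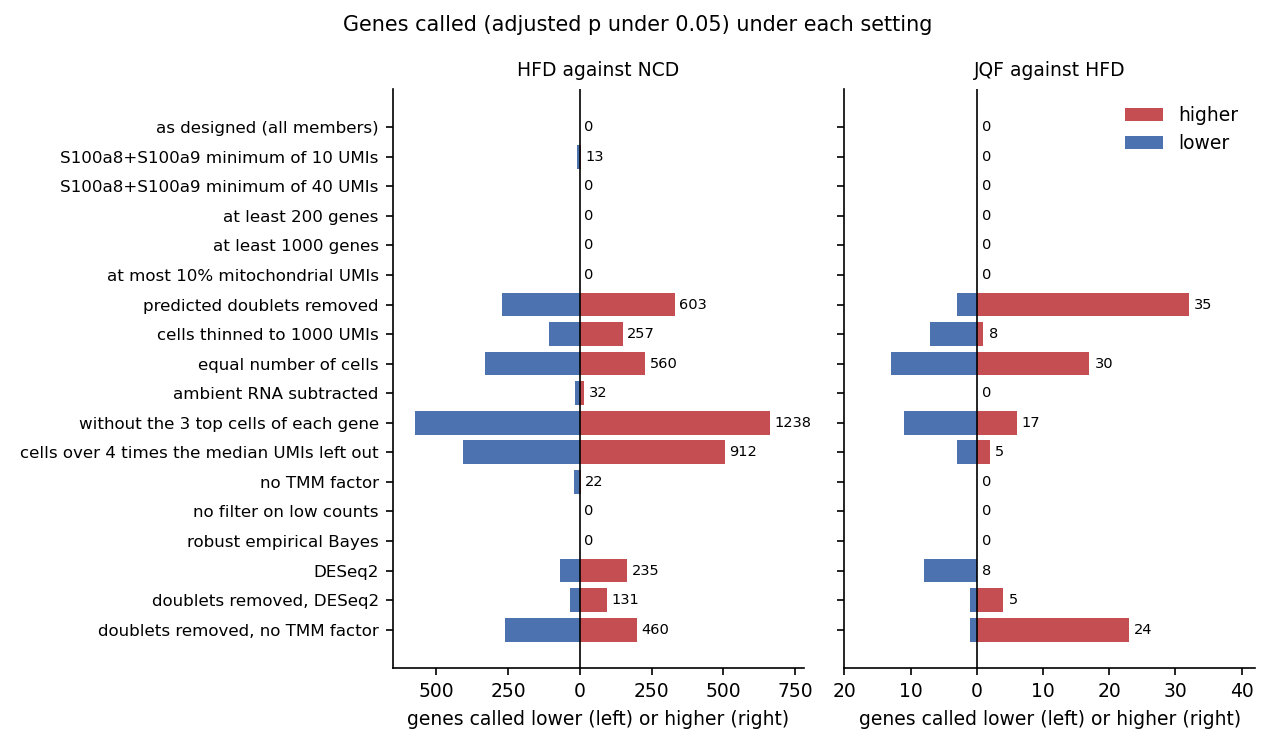
Number of genes called higher or lower in each comparison under each processing setting. Bars start at 0; the fit with all neutrophils has no bar, and most settings that leave out doublets or large cells, thin cells or equalise cell numbers have calls.

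Interferon-stimulated genes stood highest in both HFD libraries. Of 50 tested genes of the list (57 in the files), 23 were called higher in HFD than in NCD and 0 lower. Of all tested genes 4.13% were called higher and 3.39% lower. All 50 had a positive log2 fold change, with a median of 1.47 against 0.06 over all tested genes. Both HFD libraries were above NCD in 47 of 50, against 36.9% of all tested genes (both were below NCD in 43.6%). Xaf1, an apoptosis factor gene at 0 UMIs in NCD, enters that median by its fitted value; set to the bound that 3 UMIs allow, the median was 1.42. Summed over the list, the neutrophils held 5189, 9943, 9945 and 6626 CPM. With all neutrophils, predicted doublets included, the sum was 5135, 9506, 8937 and 6769 CPM. Neither scale had an HFD value below the NCD or the JQF value.

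**Figure D3:**
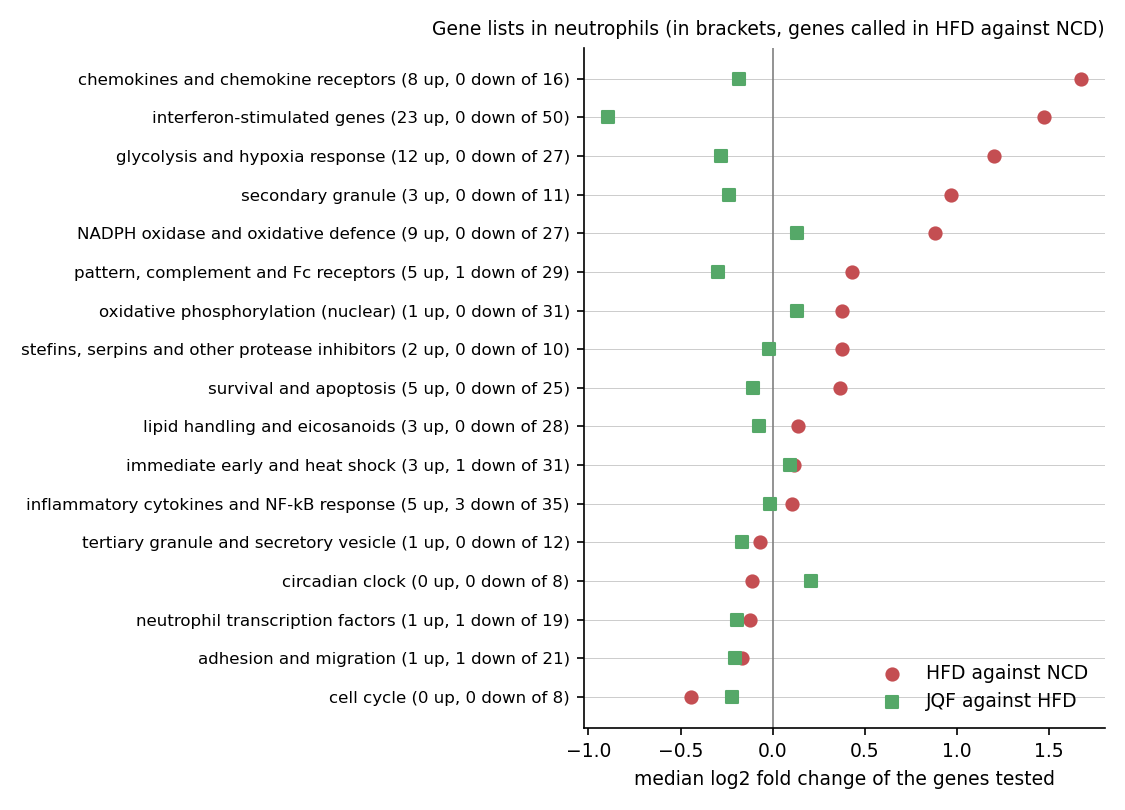
Median log2 fold change of gene lists in HFD against NCD and in JQF against HFD, neutrophils without predicted doublets. Lists with few tested genes, the markers of other cells and the MHC class II list (4.11 and -1.85) are not drawn. Interferon-stimulated genes lie at 1.47 in HFD against NCD and at -0.89 in JQF against HFD.

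Members of the list differed in role and in size of change. Cxcl10 (chr5:92346638-92348889, reverse strand of GRCm38), a chemokine for activated T cells, was at 32.3, 247, 343 and 160 CPM, a log2 fold change of 3.30 in HFD against NCD (SE 0.44, adjusted p 0.000238) that was 2.29 with all neutrophils and as low as 1.87 in another setting. Ifi27l2a (chr12:103442167-103443680, reverse strand), a small interferon-induced protein gene, was at 86.9, 479, 333 and 97.8 CPM, 2.33 higher on the log2 scale in HFD than in NCD (SE 0.37, adjusted p 0.00109). Rsad2 (chr12:26442746-26456452, reverse strand), which encodes the antiviral enzyme viperin, was at 158, 463, 617 and 202 CPM, 1.89 higher on the log2 scale (SE 0.35, adjusted p 0.00317). For these genes NCD was below JQF and JQF below both HFD libraries, although NCD and JQF are each 1 library. Some called members rested on few NCD UMIs: Ifit1 on 1, Cmpk2 and Zbp1 on 2 and Herc6 on 3. Irf1, a transcription factor of interferon responses, was at 350, 997, 749 and 483 CPM, and Slfn4, a schlafen family gene of myeloid cells, at 174, 716, 431 and 230 CPM. In the other cells of the same livers Ifi27l2a kept that order of the groups, at 34.8, 488, 494 and 222 CPM, while Cxcl10 was at 417, 365, 227 and 324 CPM and highest in NCD.

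Guanylate-binding and immunity-related GTPases are induced by interferon gamma and attack vacuoles of intracellular microbes. Of those on the list, Gbp2, Gbp5, Gbp7, Ifi47, Igtp and Irgm1 were higher in HFD, while Gbp3, at 8.09, 13.9, 22.0 and 12.4 CPM, was not called (adjusted p 0.375). Gbp2 was at 54.6, 195, 304 and 309 CPM, a log2 fold change of 2.30 in HFD against NCD (SE 0.42, adjusted p 0.00308) and 0.22 in JQF against HFD (SE 0.32, adjusted p 0.999). Gbp5 was at 10.1, 118, 83.3 and 102.1 CPM, and Ifi47 at 16.2, 49.0, 79.4 and 71.8 CPM. In Gbp2, Gbp5 and Ifi47 the JQF value lay within or above the range of the HFD pair and above NCD. Irgm1 was at 18.2, 124, 84.1 and 75.5 CPM, with JQF below both HFD libraries but not called.

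**Figure D4:**
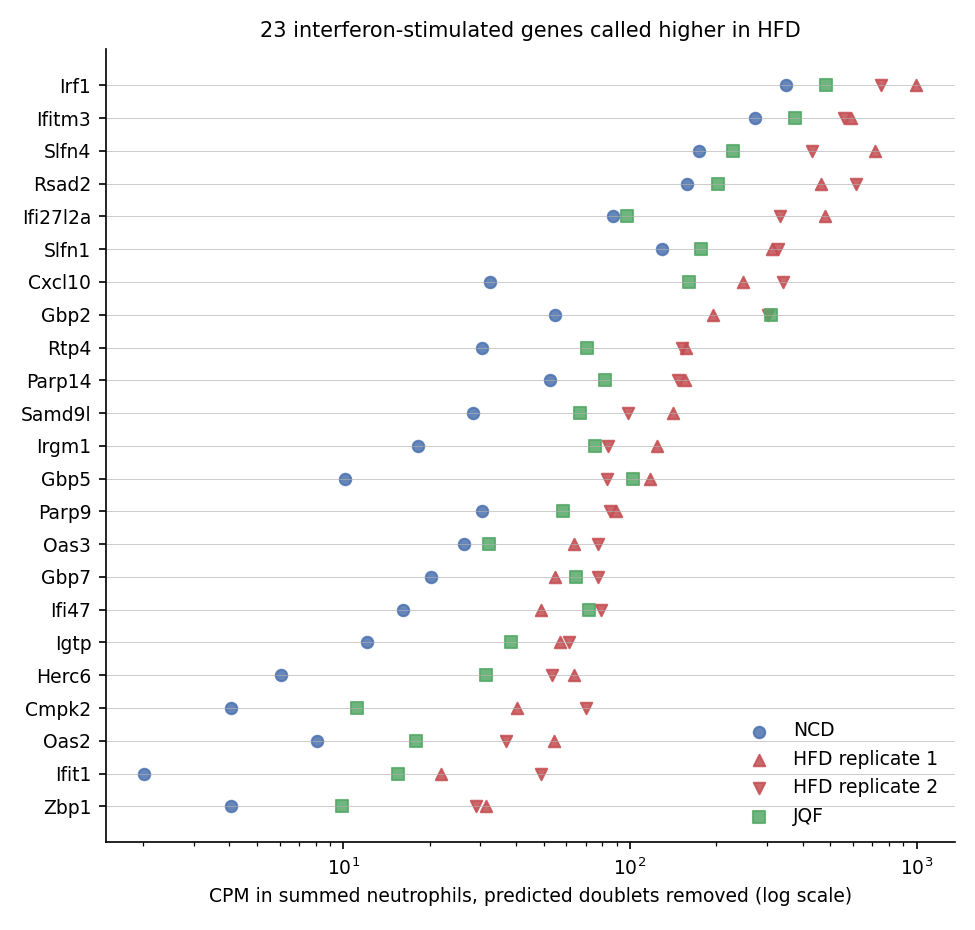
CPM of the 23 interferon-stimulated genes called higher in HFD than in NCD, in the neutrophils of each library, without predicted doublets, on a log axis. The genes were picked by that call, so their position above NCD in HFD follows from the choice. Ifi27l2a and Rsad2 are lower in the JQF library than in both HFD libraries, while Gbp2 stays at 309 CPM in JQF against 195 and 304 CPM in HFD.

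In the JQF library the interferon list was lower than in HFD. Of the 50 tested genes, 3 were called lower and 0 higher, 3 had a positive log2 fold change, the median was -0.89, and JQF was below both HFD libraries in 41, against 24.5% of all tested genes. The 3 called genes were Ifi27l2a (log2 fold change -2.13, SE 0.34, adjusted p 0.00475), Rsad2 (-1.50, SE 0.32, adjusted p 0.0475) and Cmpk2 (-2.38, SE 0.49, adjusted p 0.0363). Cmpk2, a mitochondrial nucleotide kinase transcribed beside Rsad2, was at 4.04, 40.2, 69.9 and 11.1 CPM. These 3 were all the genes called lower in JQF. Across 18 processing settings the list's median ranged from -0.90 to -0.50, Ifi27l2a was called in 8 and Rsad2 in 5. With all neutrophils, predicted doublets included, the Ifi27l2a value was -2.19 against HFD replicate 1 alone and -1.68 against replicate 2 alone. Neither HFD library alone thus carried it.

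The order of the libraries also held cell by cell. With every cell thinned to 1000 UMIs, the mean number of interferon-list UMIs per neutrophil was 5.24, 10.7, 10.2 and 6.96, and the median 5, 9, 8 and 6. At least 10 such UMIs were found in 9 of 80 neutrophils of NCD (11.2%), 158 of 370 (42.7%) and 146 of 372 (39.2%) in the HFD replicates, and 68 of 339 (20.1%) in the JQF library. The largest count was 17 in NCD and 61, 62 and 38 in the other libraries. The higher sums were spread over many cells, with a long upper tail in HFD. Monocytes, chosen by an analogous rule, held 6219, 11430, 10800 and 7755 CPM of the list, again lowest in NCD and next in JQF, while all other cells together held 6308, 6790, 6767 and 5057 CPM and the RNA outside cells 5370, 6463, 6787 and 5001 CPM; the difference between cell types was not tested.

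**Figure D5:**
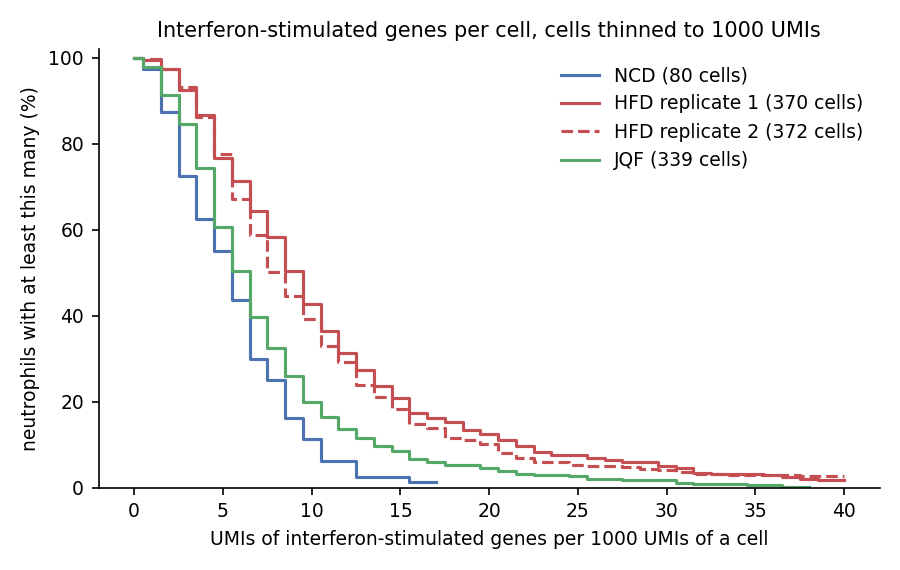
Percent of neutrophils with at least a given number of interferon-list UMIs, each cell thinned to 1000 UMIs, 1 line per library. At 10 UMIs the HFD lines lie at 42.7% and 39.2%, JQF at 20.1% and NCD at 11.2%.

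The interferon-stimulated response element, a DNA sequence known from promoters of interferon-induced genes, has the core GAAANNGAAA, or TTTCNNTTTC on the other strand. That core was found within 250 bases before the start site, on either strand, in 19 of the 39 tested list genes that had a RefSeq promoter sequence (48.7%), against 936 of 27025 genes of all kinds (3.46%). It was present in 9 of 17 called list genes (52.9%) and in 10 of 22 not called (45.5%), so it did not part the called from the uncalled. The 130 bases before the start site are shown for 7 called genes that hold the core, read 5' to 3' on the gene's own strand in build GRCm38.p6 (RefSeq), with the matches in capitals.
Rsad2 (chr12:26456453-26456582, reverse strand): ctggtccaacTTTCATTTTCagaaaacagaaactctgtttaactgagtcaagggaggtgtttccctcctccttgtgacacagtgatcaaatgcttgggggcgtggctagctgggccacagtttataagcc
Ifit1 (chr19:34640759-34640888, forward strand): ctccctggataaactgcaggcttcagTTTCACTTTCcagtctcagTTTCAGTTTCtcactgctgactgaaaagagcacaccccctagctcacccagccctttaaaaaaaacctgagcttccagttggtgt
Oas3 (chr5:120777660-120777789, reverse strand): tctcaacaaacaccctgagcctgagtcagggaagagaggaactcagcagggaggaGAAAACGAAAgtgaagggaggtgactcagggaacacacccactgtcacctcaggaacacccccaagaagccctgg
Gbp2 (chr3:142620533-142620662, forward strand): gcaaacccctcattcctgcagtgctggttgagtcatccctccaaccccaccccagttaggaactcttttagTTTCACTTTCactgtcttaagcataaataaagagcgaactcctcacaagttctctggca
Gbp7 (chr3:142530206-142530335, forward strand): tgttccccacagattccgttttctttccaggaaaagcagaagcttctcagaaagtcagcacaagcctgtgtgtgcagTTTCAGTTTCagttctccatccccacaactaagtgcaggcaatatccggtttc
Irgm1 (chr11:48871421-48871550, reverse strand): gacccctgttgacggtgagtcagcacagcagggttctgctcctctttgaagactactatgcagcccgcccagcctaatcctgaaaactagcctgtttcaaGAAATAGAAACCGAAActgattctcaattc
Igtp (chr11:58199426-58199555, forward strand): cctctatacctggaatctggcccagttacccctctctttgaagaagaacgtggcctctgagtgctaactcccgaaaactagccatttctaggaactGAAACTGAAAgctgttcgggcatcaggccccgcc
The core lay 14 bases from the start site in Irgm1 and 110 bases in Rsad2, and Ifit1 and Irgm1 held 2 matches, which overlap in Irgm1. The promoters of Rsad2 and Gbp2 both hold a match although Rsad2 was lower and Gbp2 was not called in JQF. A match describes the letters and shows no binding.

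Of 16 tested chemokine and chemokine receptor genes, 8 were higher and 0 lower than in NCD, against 4.13% and 3.39% of all tested genes. A positive log2 fold change was found in 12, and 3 lay below NCD in both HFD libraries. The list had a median log2 fold change of 1.67 (1.05 with Ccl2, at 0 UMIs in NCD, set to its bound). In JQF against HFD the median was -0.18, 1 gene was called higher and 0 lower, and Cxcl10 was not called (-0.97, SE 0.33, adjusted p 0.456). The gene called in JQF was Ccr7, a lymph node homing receptor of dendritic and T cells, at 8.09, 6.59, 3.14 and 42.1 CPM (log2 fold change 3.00, SE 0.54, adjusted p 0.0107), with 100% of its JQF UMIs in 3 cells. Ccl3, a CC chemokine gene, was at 697, 3170, 2829 and 3195 CPM, a log2 fold change of 2.21 in HFD (SE 0.28, adjusted p 0.00014). Ccl4, its close relative, was at 633, 2648, 2871 and 2572 CPM (2.23, SE 0.28, adjusted p 0.000154). Cxcl2, a Cxcr2 ligand that draws in more neutrophils, was abundant, at 8492, 17429, 17289 and 15353 CPM (1.14, SE 0.22, adjusted p 0.00406). The JQF values of Ccl3 and Ccl4 lay close to those of HFD, and that of Cxcl2 was below both. The receptor Cxcr1 was at 2.02, 29.3, 26.7 and 27.2 CPM, the first of these resting on 1 UMI. Ccl5, also called, is a T and NK cell marker too, at 14.2, 95.1, 62.9 and 56.9 CPM.

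Cytokine genes did not move one way. Of 35 tested inflammatory and NF-kB genes, 5 were higher and 3 lower in HFD, against 4.13% and 3.39% of all tested genes. The list had a median log2 fold change of 0.11. Il1b, a major inflammatory cytokine gene, was lower, at 16804, 6727, 9565 and 7861 CPM (log2 fold change -0.93, SE 0.24, adjusted p 0.0224), as was Nlrp3, the sensor of the inflammasome that matures its product, at 3040, 1501, 1512 and 2005 CPM. Il1rn, the interleukin 1 receptor antagonist, was higher, at 364, 814, 960 and 690 CPM (1.40, SE 0.30, adjusted p 0.00956). Tnf was at 479, 988, 872 and 834 CPM, and Nfkbia, the inhibitor that NF-kB induces, at 3267, 6317, 6220 and 5731 CPM, both higher in HFD. Il1a was also called lower, with 71.1% of the UMIs of NCD in 3 cells.

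Of 27 tested genes of the oxidative burst, of iron storage and of antioxidant defence, 9 were higher in HFD and 0 lower. Of all tested genes these shares were 4.13% and 3.39%, and the list had a median log2 fold change of 0.88. The oxidase subunit Cyba was at 467, 1218, 1264 and 1134 CPM (log2 fold change 1.52, SE 0.29, adjusted p 0.00389), and its partner Cybb at 103, 233, 226 and 199 CPM. The ferritin chains Fth1 and Ftl1 reached 8067, 16229, 19882 and 21312 CPM and 2310, 7108, 7839 and 8192 CPM. Hmox1, which breaks down heme, was at 54.6, 364, 239 and 447 CPM (2.56, SE 0.40, adjusted p 0.000865), and Gclm, a subunit of the enzyme that starts glutathione synthesis, at 12.1, 64.4, 82.5 and 183 CPM. For the same list, 17 of the 27 were higher in JQF than in both HFD libraries, against 40.2% of all tested genes, and 1, Prdx1, was called; its 3 top cells held 75.2% of its JQF UMIs. That direction did not hold with equal cell numbers, where 9 of 25 had a positive log2 fold change, the median was -0.097 and 1 gene was called lower. Gclm in JQF against HFD gave a log2 value of 1.23 (SE 0.30, adjusted p 0.111).

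Of 27 glycolysis and hypoxia-response genes, with a median of 1.20, 12 were higher in HFD and 0 lower, against 4.13% and 3.39% of all tested genes. The genes were Hk1, Hk2, Hk3, Pfkp, Tpi1, Pgk1, Pgam1, Eno1, Pkm and Ldha, enzymes of glycolysis and lactate formation, with the hypoxia-induced hydroxylase genes Egln3 and P4ha1. Gpi1, at 152, 197, 207 and 181 CPM, and Gapdh, at 297, 501, 594 and 551 CPM, were not called. Eno1 was at 8.09, 119, 132 and 106 CPM (log2 fold change 4.05, SE 0.53, adjusted p 0.000216); Eno1b is a near-identical copy, so the level of either is uncertain. Pgam1 was at 56.6, 191, 198 and 135 CPM and Ldha at 95.01, 257, 210 and 173 CPM. JQF was below both HFD libraries in 19 of the 27, against 24.5% of all tested genes, and edgeR called 0, with a median of -0.28. Summed, the list held 3125, 4613, 4762 and 4181 CPM in the neutrophils. The rise from NCD was not confined to them: monocytes held 1851, 4163, 4080 and 3768 CPM. All other cells together held 1613, 3007, 3164 and 2640 CPM, and free RNA 1583, 2838, 3044 and 2497 CPM. Eno1 was at 9.45, 132, 138 and 105 CPM in the other cells and at 10.8, 85.8, 125 and 90.1 CPM in free RNA. The difference between cell types was not tested.

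Plin2, which encodes a coat protein of lipid droplets (chr4:86648386-86670060, reverse strand, coordinates here and below in GRCm38), was higher in HFD. It was at 88.9, 839, 733 and 801 CPM, a log2 fold change of 3.25 in HFD (SE 0.35, adjusted p 5.1e-05), and was called in 11 of 18 settings, with values from 3.02 to 4.21. In the other cells it was at 95.4, 343, 471 and 195 CPM, so the JQF value lay between the HFD values in neutrophils and below both in the other cells; that difference was not tested. Hilpda, the gene of a lipid droplet-associated protein, was at 26.3, 82.0, 164 and 114 CPM and Fabp5, a fatty acid binding protein gene, at 26.3, 67.3, 83.3 and 73.6 CPM. These 3 were the genes called of 28 tested lipid genes, with 0 lower, against 4.13% called higher and 3.39% lower of all tested genes.

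By size of fold change, the 10 named genes higher in HFD were Gdf15, Eno1, Cstb, Gbp5, Acot1, Cxcl10, Plin2, Crispld2, Egln3 and Apobec3, chosen from 228 genes that passed the naming rule. Cstb (chr10:78425669-78427622, forward strand), which encodes an inhibitor of lysosomal cathepsins, was at 64.7, 744, 726 and 918 CPM (log2 fold change 3.61, SE 0.36, adjusted p 2.6e-05). Gdf15, a stress-induced cytokine gene, was at 8.09, 108, 145 and 183 CPM, with 39.2% of its HFD UMIs in 3 cells. Acot1, an acyl-CoA thioesterase gene with near-identical neighbours, was at 8.09, 47.6, 110 and 90.3 CPM. Crispld2 was at 10.1, 81.2, 91.9 and 88.5 CPM, and the antiviral deaminase gene Apobec3 at 12.1, 90.7, 87.2 and 85.4 CPM. The log2 fold change ranged over 18 settings from 3.35 to 3.67 for Cstb and from 2.54 to 5.09 for Eno1. Its lowest value was 3.52 for Gdf15, 2.85 for Acot1 and 1.83 for Apobec3, whose highest values came from settings that left no NCD UMI of the gene. In Cstb, Gdf15, Acot1, Crispld2 and Apobec3 the JQF value stayed near or above the HFD values. In the other cells Cstb was at 57.8, 237, 319 and 204 CPM and Gdf15 at 6.12, 60.9, 124 and 54.5 CPM. Apobec3 was there at 67.6, 239, 157 and 170 CPM, Acot1 at 3.77, 14.5, 29.9 and 20.4 CPM, and Crispld2 at 0.235 to 1.75 CPM. Free RNA held Gdf15 at 7.62, 96.1, 212 and 90.7 CPM and Apobec3 at 71.0, 176, 137 and 136 CPM. The difference between cell types was not tested. With all neutrophils the adjusted p of the named genes of this comparison was 0.113 to 0.173.

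Over all tested genes, 4.13% were called higher and 3.39% lower in HFD. Of 29 pattern and Fc receptor genes 5 were higher and 1 lower in HFD: Tlr4, which senses lipopolysaccharide, at 64.7, 214, 177 and 150 CPM, its co-receptor Cd14 at 350, 771, 876 and 724 CPM, Clec4n, Clec4e and Fcer1g, with Fcgr2b lower, at 109, 46.8, 41.7 and 27.2 CPM. Fcgr2b is also an endothelial marker, 1 of 9 such markers called lower. Of 25 genes of survival and apoptosis, a list of both roles, 5 were higher: Bcl2a1b and Bcl2a1d, near-identical copies whose reads cannot be parted with certainty, Bcl2l1, Bax and Cflar. Of 21 adhesion genes 1 was higher and 1 lower, shares near those of all genes: Cd9, and Cd44, the hyaluronan receptor, which was lower, at 5832, 2382, 2351 and 2551 CPM (log2 fold change -1.19, SE 0.23, adjusted p 0.0041). Fkbp5, a glucocorticoid-induced gene, was at 48.5, 274, 238 and 126 CPM; its JQF value was not called (-1.10, SE 0.31, adjusted p 0.245). Secondary granule genes were higher in 3 of 11, namely Lyz2, Cyba and Cybb, and immediate early genes in 3 of 31 with 1 lower, their sums being 51925, 51243, 51422 and 53532 CPM. Of the 8 clock genes and the 8 cell cycle genes edgeR called 0 in either direction.

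The 10 named genes lower in HFD, from 137 that passed the rule, were Wwox, Jmy, Rfx2, CAAA01118383.1, Taf1, Slc15a2, Btaf1, Cnot10, Ralgapa2 and Pde3b. Jmy, an actin nucleation and p53 cofactor gene, was at 239, 38.1, 36.2 and 58.2 CPM, and Rfx2, a transcription factor gene, at 123, 19.8, 22.0 and 19.8 CPM. Wwox, an oxidoreductase gene spanning a large fragile site, was at 206, 16.1, 10.2 and 23.5 CPM, with 41.2% of its NCD UMIs in 3 cells. Over the 10 genes that share ran from 19.2% in Btaf1 to 49.2% in Rfx2, and was 47.7% in Pde3b and 46.4% in Slc15a2. Ralgapa2 was at 117, 34.4, 24.4 and 63.1 CPM in the neutrophils and at 947, 117, 115 and 138 CPM in the other cells. Free RNA held it at 475, 60.7, 64.1 and 74.3 CPM. In the other cells Wwox was at 242, 101, 94.0 and 94.2 CPM and Slc15a2 at 112, 16.5, 15.9 and 21.9 CPM. Rfx2 was there at 12.0, 11.3, 11.5 and 19.8 CPM and Pde3b at 171, 177, 114 and 288 CPM. For Jmy, Taf1, Btaf1, Cnot10 and CAAA01118383.1 the NCD value there was also above both HFD values. The difference between cell types was not tested. The genes called lower spanned a median of 93.3 kb on the chromosome, against 17.2 kb for those called higher and 26.7 kb for all tested; whether introns were counted alike in all libraries is not settled by the sources used here. Endothelial markers summed to 908, 76.8, 109 and 59.4 CPM in the neutrophils and to 13858, 306, 1581 and 1014 CPM in the other cells, with 9 of 12 lower in HFD. The part of gene span, of free RNA and of endothelial transcripts in these calls was not tested.

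The genes called higher in JQF than in HFD came mostly from few cells. None of the 32 passed the naming rule; those named here were chosen after their values were seen. Clu was at 6.06, 6.59, 8.65 and 355 CPM with 94.6% of its JQF UMIs in 3 cells, and Spp1 at 2.02, 64.4, 72.3 and 454 CPM with 95.1%. The bile duct and epithelial genes Epcam, Sox9 and Krt18 were also called, with the hepatocyte genes Alb, Ttr and Serpina1c. Alb was at 232, 37.3, 113 and 314 CPM, and the hepatocyte markers summed to 1005, 290, 651 and 1098 CPM, none of the 14 being at 0. Klf4, a transcription factor gene of myeloid cells, was lower in HFD and higher in JQF, at 60.6, 15.4, 11.0 and 61.9 CPM, with 60.0% of its JQF UMIs in 3 cells. The part of hepatocyte, epithelial and doublet transcripts in these values was not tested.

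Markers of other blood cells are given without predicted doublets. Macrophage markers summed to 469, 451, 770 and 682 CPM, monocyte markers to 111, 168, 175 and 182 CPM, T and NK cell markers to 26.3, 113, 93.5 and 75.5 CPM with 3 of 12 at 0 and most of each sum from Ccl5, and B cell markers to 56.6, 69.5, 177 and 162 CPM with 2 of 8 at 0. MHC class II genes, of which 4 of 7 were called higher in HFD, summed to 139, 3082, 710 and 725 CPM. With all neutrophils that sum was 2410, 4276, 3286 and 1741 CPM and edgeR called 0 of the genes and DESeq2 called 1. The median log2 fold change of the list was 4.11 without predicted doublets (3.63 with H2-DMb1, at 0 UMIs in NCD, set to its bound), 0.86 with all neutrophils and 0.07 with equal cell numbers. Without the 3 top cells of each gene it was 5.07, with 6 of 7 called higher in HFD and 3 called lower in JQF, so its size rested on which cells were counted. Dendritic cell markers summed to 44.5, 138, 18.9 and 80.4 CPM without predicted doublets and to 185, 156, 193 and 131 CPM with all neutrophils. HFD replicate 1 was highest in both lists without predicted doublets, and 3 cells held between 60.5% and 73.0% of the HFD UMIs of Cd74 and H2-Ab1.

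The NCD neutrophils differed from every other library more than those libraries did among themselves. Between NCD and the others, 26.1%, 20.5% and 18.4% of the genes with at least 50 CPM differed by 2-fold or more (pseudocount 1 CPM), for HFD replicate 1, HFD replicate 2 and JQF. Between the HFD replicates the share was 3.68%, and between JQF and the HFD replicates it was 3.59% and 3.49%. By this count the JQF library lay about as near to each HFD library as they lay to each other. NCD had the fewest neutrophils and the most UMIs per neutrophil, and the part of those differences was not tested.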

How the data were processed

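The 4 single-cell libraries (10x 3' chemistry) of mouse liver were deposited by the authors as gene-by-barcode UMI counts, unnormalized, aligned to mm10. The labels and methods name Cell Ranger 6.0.1 and Seurat 4.0.3. The headers of the NCD library carry 7.0.0 (filtered) and 4 (unfiltered), so intron counting is unsettled. Header versions of the HFD and JQF libraries are not given here. Members and gene lists were chosen with earlier results of these data known. Neutrophils were selected by UMI thresholds and summed per library. Groups were compared with edgeR 4.0.16 (quasi-likelihood F test, TMM, filterByExpr, all 4 libraries, group only, 1 residual degree of freedom, Benjamini-Hochberg threshold 0.05), NCD and JQF being assumed to vary like HFD; DESeq2 1.42.0 was an alternative. The code was tested on simulated data. The 15 genes of the rule were left out of counts of called genes. SE was the absolute log2 fold change over the root of the F statistic. Doublets were predicted with Scrublet in scanpy 1.11.5 at an assumed rate of 0.8% per 1000 barcodes, since its own threshold marked few. Free RNA was profiled from barcodes with 1 to 50 UMIs. Filtered libraries held 69445244 to 109446496 UMIs. Counting precision is set by the UMIs summed over neutrophils. Without predicted doublets these were 494698 in NCD, 1366543 and 1272440 in the HFD replicates and 1616013 in JQF. Named genes were the 10 highest and 10 lowest log2 fold changes among called genes with at least 50 CPM, both HFD libraries on the same side and at most 50% of the UMIs of the higher group in 3 cells, beside members of the lists. Alternatives covered the thresholds, doublets, depth, free RNA, top cells, scaling, filters, tool and left-out replicates. The labels also name a cell line and a cell type that do not describe liver tissue, and they were not used.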

Additional observations from a re-analysis of the deposited data

How the results depend on the processing

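The count of genes called in HFD against NCD was 0 with all neutrophils and also 0 at an S100 minimum of 40 UMIs, with at least 200 or 1000 genes per cell, at most 10% mitochondrial UMIs, no filter on low counts, or robust empirical Bayes. It was 13 at an S100 minimum of 10, 603 without predicted doublets, 257 with cells thinned to 1000 UMIs, 560 with equal cell numbers, 32 with free RNA subtracted, 1238 without the 3 top cells of each gene, 912 without cells over 4 times the median UMIs, 22 without TMM and 235 with DESeq2. Without predicted doublets it was 131 with DESeq2 and 460 without TMM; without TMM 199 were higher and 261 lower, where with TMM 331 were higher and 272 lower. In JQF against HFD the count was 0 with all neutrophils, 35 without predicted doublets (5 with DESeq2, 24 without TMM), 8 thinned, 30 with equal cell numbers, 17 without the 3 top cells, 5 without the large cells and 8 with DESeq2. The large-cell settings and those naming 2 choices were chosen after seeing the data. The fit with all neutrophils was the main fit, while the called genes in the Results come from the alternative without predicted doublets. Leaving TMM out moved the median of all genes in HFD against NCD from 0.06 to -0.16 (log2). The HFD to NCD share ratio of 3.30 was 1.43 among Ptprc-positive cells and 1.44 without Ptprc-negative parenchymal cells, and ranged from 2.59 to 4.01 with an HFD replicate left out. The JQF to HFD ratio of 0.863 ranged from 0.711 to 1.10 with an HFD replicate left out, so its direction turned against HFD replicate 2 alone. It also turned with at least 1000 genes per cell (1.04), where the shares were 1.59%, 4.66%, 2.98% and 3.98%. With kept cells thinned to 1000 UMIs before the rule, the shares were 0.793%, 3.93%, 2.68% and 2.61%. There the JQF share lay below both HFD replicates. The median of the inflammatory list in HFD against NCD (-0.016 to 0.42) and those of the chemokine (-0.20 to 0.035) and oxidative (-0.097 to 0.22) lists in JQF against HFD changed sign between settings. Leaving out an HFD replicate left no residual degrees of freedom, so gene values were recomputed with no test. The comparison with monocytes, with its alternatives, was not run, since NCD held 46 monocytes, below the minimum of 50. No paired analysis was made, since the sample titles pair no libraries across groups and NCD and JQF have 1 library each.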
